A study of Mus musculus with 16 samples.

Results

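The response to LPS was examined in bone-marrow-derived macrophages (BMDM) that lack NELF-B, by comparing 3 libraries treated with LPS for 1 h with 2 untreated libraries. These 5 were chosen by their labels from the 16 RNA-seq libraries of the study, and all 9614 genes of the table were compared. BMDM are macrophages grown in culture from bone marrow, here of C57BL/6 male mice of 8 weeks in the labels and 8 to 10 weeks in the study's methods. The NELF-B KO mice were LysM-Cre:NELF-B fl/fl, and the WT mice used for comparison were LysM-Cre:NELF-B wt/wt, so both genotypes carried the Cre. LysM-Cre cuts floxed DNA in myeloid cells, and in the fl/fl mice the floxed part is exon 4 of Nelfb. Cells were left untreated, treated with 10 ng/ml LPS, or treated with LPS and 100 nM of the synthetic glucocorticoid dexamethasone (Dex). Numbers in the labels were read as mouse numbers, which gives 3 KO mice, here called A, B and C. Mice A and B gave an untreated and an LPS library each, and mouse C gave no untreated library. The WT comparison had the same sizes, with 3 LPS and 2 untreated libraries.

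LPS, a component of the outer membrane of Gram-negative bacteria, is bound by CD14 and by TLR4 with its partner MD-2. The adaptors MyD88 and TRIF then carry the signal to NF-κB, to MAP kinases with AP-1, and to IRF3, which drives interferon beta. Many genes that answer within the first hour hold RNA polymerase II stopped a short way past the start before any signal arrives. NELF, a complex that includes NELF-B, holds the polymerase there with DSIF, and P-TEFb releases it into elongation. The comparison asks which genes LPS changes within 1 h in macrophages without NELF-B.

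Values are log2 CPM, the log2 of a gene's reads over the scaled total of its library, and a difference of 1 is a 2-fold change. The KO libraries held 30800000 to 49700000 reads on the listed genes, and their values correlated at r = 0.93 to 0.991 across genes. Nelfb, at chr2:25199712-25211489 on the minus strand (mm10), was at 3.53 and 4.38 in untreated KO mice A and B and at 3.27, 4.21 and 3.48 in LPS-treated KO mice A, B and C. In the 5 WT libraries it was at 5.59 to 6.21, above every KO value. Residual Nelfb reads therefore remained in all 5 KO libraries, and these cannot be told apart as uncut cells or as transcripts without exon 4. The change of Nelfb with LPS was -0.30 (standard error 0.39, limma adjusted p = 0.949). With a replicate block for the mouse it was -0.22 (standard error 0.07, limma adjusted p = 0.0525), under the 1.5-fold limit. Within mice A and B it was -0.25 and -0.17. Of 10 macrophage markers, 9 were measured, with a summed level of 8580 and 7210 CPM in untreated mice A and B and 8780 to 9610 CPM in the LPS libraries. The sum includes Cd14 and Lyz2, the 2 of the 9 called higher with LPS. Cd14 went from 9.24 and 8.85 to 10.70, 10.66 and 10.75 log2 CPM, so a higher sum need not mean more macrophages. Markers of mast cells and erythroid cells were not among the genes of the table. Those measured were 2 of 10 for neutrophils, 1 of 6 for B cells and 1 of 8 for T or NK cells. For dendritic cells 1 of 6 was measured, for fibroblasts 4 of 6 and for osteoclasts 2 of 6. Of these measured markers of other cell types 0 were called. The standard error of the log2 change was 1.13 for Cd4 and 1.74 for Ccr7, so the lack of a call says little about these cells. With a replicate block for the mouse, 1 fibroblast marker, the collagen gene Col3a1, was called higher. Both libraries of mouse B stood apart in some of them. Ccr7, a marker of mature dendritic cells, was at 2.74 and 3.06 in the untreated and LPS libraries of mouse B and at -1.12 to -0.91 in the other 3. Cd4 was at 5.01 and 5.12 in mouse B and at 2.53 to 2.74 elsewhere, and Cd79b at 5.31 and 5.13 against 3.92 to 4.14. In the KO these differences went with the mouse and were present before LPS. WT mouse B, another animal by its number, also had higher Ccr7, at 2.18 and 2.50 against -0.85 to -0.10 in the other WT libraries. Cd79b was at 5.19 and 4.76 in WT mouse B and at 3.80 to 4.99 in the other WT libraries. Cd4 was at 4.94 to 5.86 in WT mice A and B and at 3.13 in WT mouse C. The source of these differences was not tested. The summed level of 4 fibroblast markers was at most 89.7 CPM in untreated and 99.7 to 125 CPM in LPS-treated KO libraries. Its part in the results was not tested. In bulk RNA, fewer cells of a type and less RNA per cell cannot be told apart.

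LPS raised 342 genes and lowered 165 genes of the NELF-B KO macrophages within 1 h. A gene was called at a limma FDR under 0.1 with over 1.5-fold, and these were 3.56% and 1.72% of the 9614 genes. The rises were larger than the falls. The median called rise was 2.99-fold, and 134 genes rose over 4-fold, 43 over 16-fold and 26 over 32-fold. The median called fall was -0.87 on the log2 scale, 51 genes fell over 2-fold, and 1 fell over 4-fold. Across all genes the median log2 change was -0.01. The 342 raised genes took 2.31% and 2.28% of the reads on the table in the untreated libraries and 8.10% to 9.01% in the LPS libraries. The 165 lowered genes took 0.319% and 0.329% before and 0.156% to 0.173% after. A replicate block for the mouse called 431 rises and 247 falls, which included 339 of the 342 and 152 of the 165. The number of lowered genes was 75 without untreated mouse A and 52 without untreated mouse B, each of which leaves 1 untreated library.

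**Figure D1:**
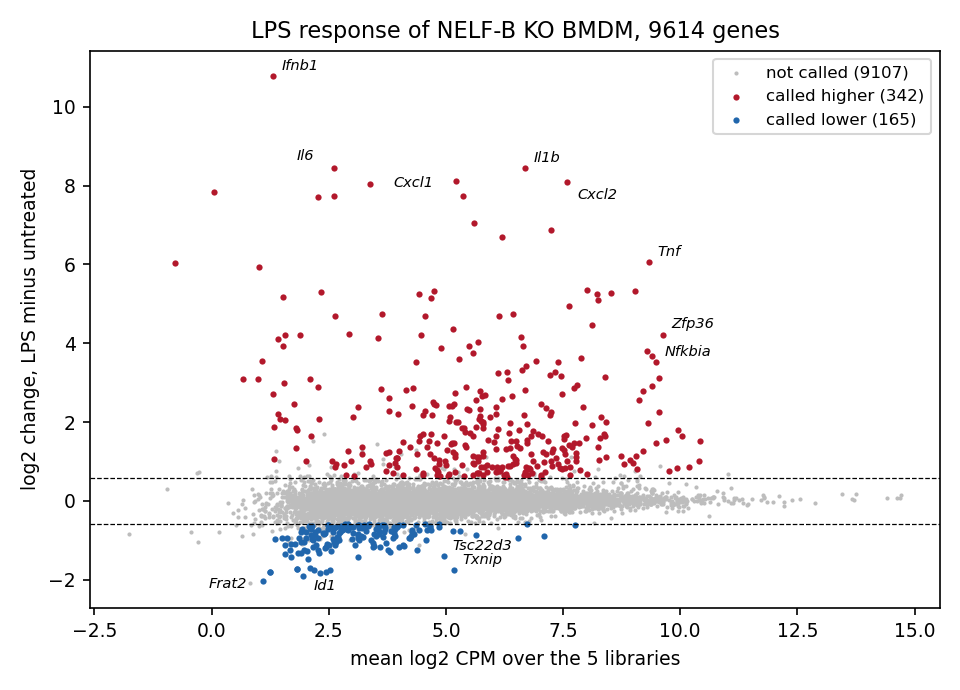
Each point is a gene, with its mean log2 CPM over the 5 KO libraries on the x axis and the fitted log2 change with LPS on the y axis. Dashed lines mark 1.5-fold. The 342 genes called higher (red) reach 10.78, and the 165 called lower (blue) reach -2.04.

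In mice A and B the response could be read within the animal, as the LPS library minus the untreated library of the same mouse. All 342 raised genes rose in both mice, and 329 of them by over 1.5-fold in each. All 165 lowered genes fell in both, and 126 by over 1.5-fold in each. For the raised genes the median change came to 1.59 within mouse A and 1.68 within mouse B, and for the lowered genes to -0.77 and -0.93. The 3 LPS and 2 untreated values did not overlap for any of the 342 raised or 165 lowered genes. Of all 9614 genes, 12.6% had every LPS value above and 13.3% every LPS value below both untreated values. The calls were made from these libraries, so the direction in the pairs is a description.

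**Figure D2:**
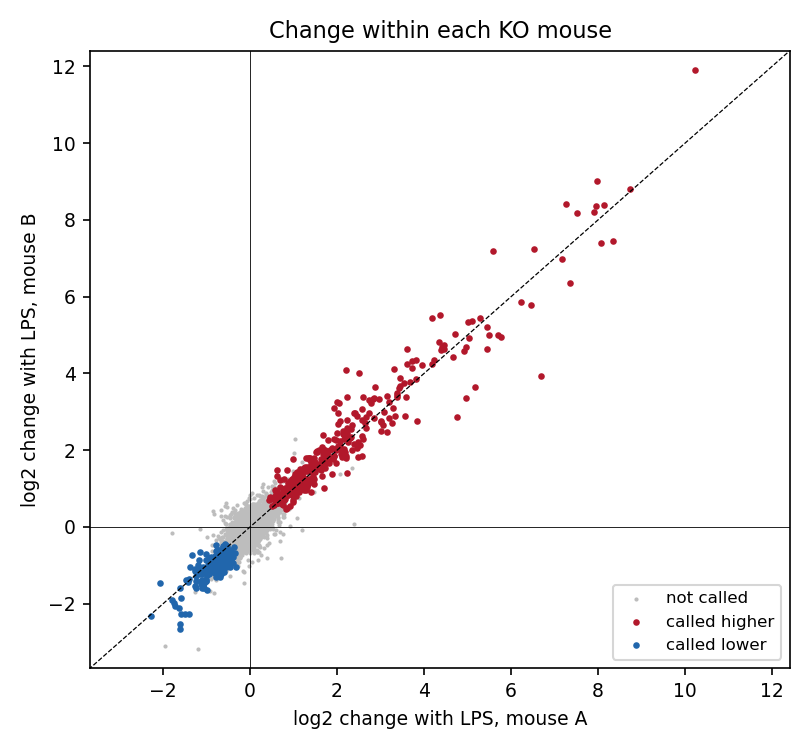
Each point is a gene, with its log2 change from untreated to LPS in KO mouse A on the x axis and in KO mouse B on the y axis. The dashed line is equality. Called genes (red higher, blue lower) lie in the quadrants where both mice moved the same way.

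Of the 10 genes with the largest fitted rise, most encode cytokines, chemokines or other secreted ligands. Ifnb1 encodes interferon beta and is a gene without introns at chr4:88522025-88522774. It had 0 reads in both untreated libraries and 1148, 3145 and 1493 reads in LPS-treated mice A, B and C. Set against a floor of 3 reads per untreated library, the mean LPS level of Ifnb1 over the 3 mice was 724-fold higher. That mean is lifted by mouse B, at 6.76 log2 CPM against 5.09 and 5.02 in mice A and C, so 724 is no lower bound for each mouse. The interleukin genes Il1b and Il6 were also among the 10. Il1b was at 1.90 and 1.36 in untreated mice A and B and at 9.88, 10.37 and 9.96 in LPS-treated mice A, B and C, a 347-fold rise (log2 change 8.44, standard error 0.26, limma adjusted p = 7.61e-07). Il6 was at -2.95 and -1.98 before and at 5.79, 6.83 and 5.31 after LPS (log2 change 8.44, standard error 0.50, adjusted p = 3.4e-05). In both genes the groups lay far apart, and mouse B gave the highest LPS value.

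The neutrophil attractants Cxcl1 and Cxcl2 and the T cell attractant Cxcl10 lie on chromosome 5, with Cxcl1 at chr5:90891241-90893115, Cxcl2 at chr5:90903871-90905938 and Cxcl10 at chr5:92346638-92348889. Cxcl1 went from 0.29 and 0.38 to 8.25, 8.74 and 8.40 (280-fold). Cxcl2 went from 2.68 and 2.79 to 10.60, 11.00 and 10.85 (271-fold). Cxcl10 went from 1.10 and 0.38 to 8.37, 8.79 and 8.22 (212-fold). All 3 LPS values of each chemokine lay far above both untreated values, and mouse B was the highest each time. Il1a, the other agonist of the IL-1 receptor, went from -1.82 and -1.06 to 6.32, 7.34 and 6.10. Gem, a small GTPase, went from -1.70 and -2.34 to 5.82, 5.82 and 5.50 (213-fold), with the LPS libraries closer together than the untreated. Csf3, the granulocyte colony-stimulating factor, rested on 3 and 12 reads in the untreated libraries and had 1147 to 1876 reads with LPS. Areg, a ligand of the EGF receptor, had 1 read over both untreated libraries and 1025 over the LPS libraries, a ratio of 705 with an exact 95% counting interval of 126 to 27900. At so few reads the fitted log2 changes of Ifnb1, Areg, Csf3 and Il6 depend on the offset in the deposited values.

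**Figure D3:**
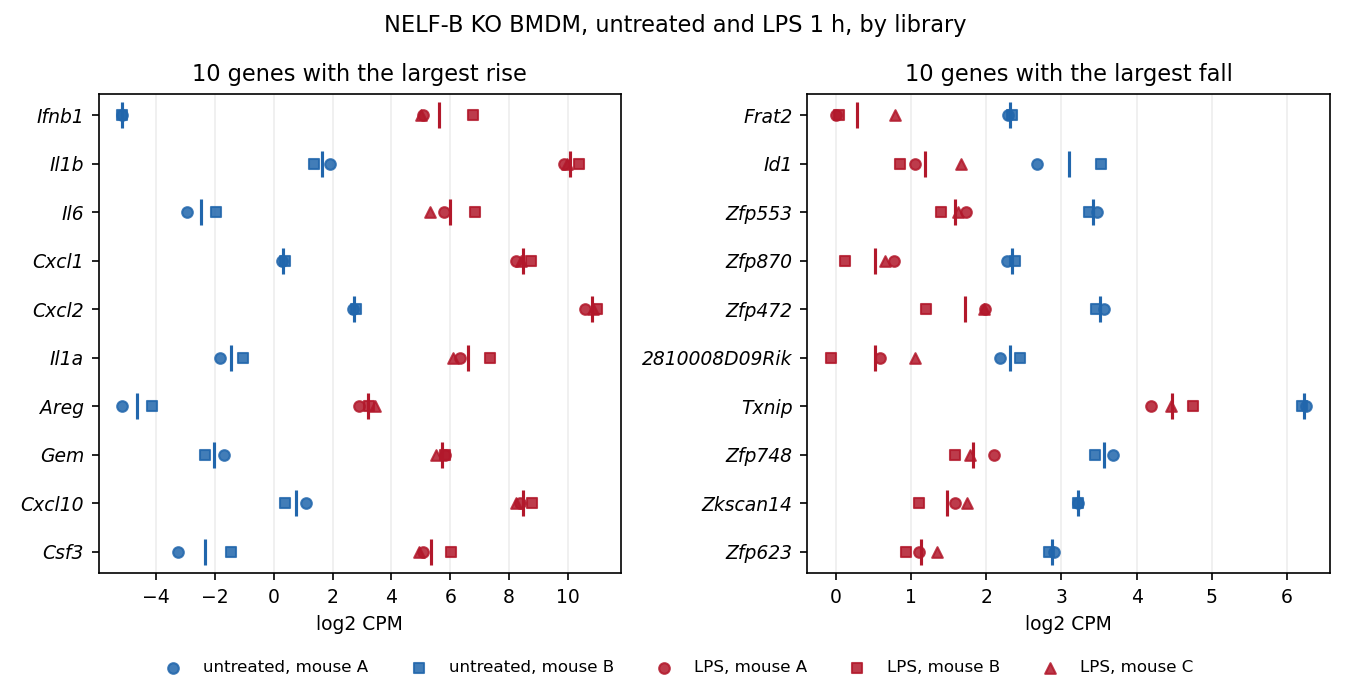
Log2 CPM of the 10 genes with the largest called rise (left) and the 10 with the largest called fall (right) in NELF-B KO BMDM, each point a library, blue untreated and red LPS, with the mouse given by the marker and the group mean by a bar. No red point of the left panel lies below a blue point of the same gene, and none of the right panel lies above.

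Some promoters of the raised genes held motifs of LPS-activated factors, and each share is given beside those of all measured genes and all promoters. The 250 bases before each RefSeq start (GRCm38.p6, the assembly that mm10 also names) were searched on both strands, for 265 of the 342 raised and 124 of the 165 lowered genes. The NF-κB consensus of 10 bases was present in 18.2% of the promoters of raised genes, in 27.3% of those of genes raised over 8-fold, in 5.84% of those of lowered genes, in 8.82% of those of all measured genes and in 7.25% of all promoters in the table. The promoters of Ifnb1 (chr4:88522795-88523044, minus strand), Cxcl1 (chr5:90890995-90891244, plus strand), Cxcl2 (chr5:90903649-90903898, plus strand) and Nfkbia (chr12:55492648-55492897, minus strand) follow, because these genes rose 11.5-fold or more and hold the match close to the start. Capitals mark the match to the consensus, and in Cxcl1 and Cxcl2 they cover a pair of overlapping matches.
Ifnb1: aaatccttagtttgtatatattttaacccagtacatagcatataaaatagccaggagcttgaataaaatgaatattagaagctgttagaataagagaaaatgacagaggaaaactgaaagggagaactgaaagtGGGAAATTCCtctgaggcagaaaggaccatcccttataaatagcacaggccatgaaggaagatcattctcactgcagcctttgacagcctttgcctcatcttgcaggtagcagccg
Cxcl1: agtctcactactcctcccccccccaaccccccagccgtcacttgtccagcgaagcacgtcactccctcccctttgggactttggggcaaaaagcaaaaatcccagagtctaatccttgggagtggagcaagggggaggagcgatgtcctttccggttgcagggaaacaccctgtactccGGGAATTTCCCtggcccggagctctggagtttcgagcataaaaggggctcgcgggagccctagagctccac
Cxcl2: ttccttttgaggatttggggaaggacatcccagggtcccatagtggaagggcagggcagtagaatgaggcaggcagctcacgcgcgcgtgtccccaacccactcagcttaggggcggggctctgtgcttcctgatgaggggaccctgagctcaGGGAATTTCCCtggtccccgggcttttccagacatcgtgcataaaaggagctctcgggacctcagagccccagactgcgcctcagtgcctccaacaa
Nfkbia: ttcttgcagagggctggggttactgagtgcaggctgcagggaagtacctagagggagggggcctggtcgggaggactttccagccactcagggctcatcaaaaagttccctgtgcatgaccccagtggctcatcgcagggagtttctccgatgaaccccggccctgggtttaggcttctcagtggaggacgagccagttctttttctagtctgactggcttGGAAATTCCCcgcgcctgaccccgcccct

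Other motifs were searched in the same windows, and a promoter could hold several of them. The cyclic AMP response element TGACGTCA was in 5.04% of the promoters of raised genes, 12.1% of those raised over 8-fold, 3.90% of those lowered and 2.74% of those of all measured genes, against 1.55% of all promoters. The AP-1 site TGANTCA was in 7.56% of raised, 15.2% of those over 8-fold, 3.90% of lowered and 4.42% of all measured genes' promoters, against 6.75% of all promoters. The CArG box, which serum response factor binds, was in 2.24%, 9.09%, 1.30% and 1.04% of the same groups and in 1.47% of all promoters. The interferon response element was in 4.48%, 7.58%, 0.649% and 2.74%, against 2.98% of all promoters. TATAAA, read on the strand of the gene, was in 9.80%, 19.7%, 4.55% and 3.60%, against 7.59% of all promoters. Matches of different motifs were counted separately, overlapping or not. Areg (chr5:91139349-91139598, plus strand) and Dusp1 (chr17:26508473-26508722, minus strand) are shown for the cyclic AMP response element, Zfp36 (chr7:28379229-28379478, minus strand) for the CArG box and Ifit1 (chr19:34640639-34640888, plus strand) for a pair of interferon response elements, each in capitals. A match describes the sequence and was not tested for binding.
Areg: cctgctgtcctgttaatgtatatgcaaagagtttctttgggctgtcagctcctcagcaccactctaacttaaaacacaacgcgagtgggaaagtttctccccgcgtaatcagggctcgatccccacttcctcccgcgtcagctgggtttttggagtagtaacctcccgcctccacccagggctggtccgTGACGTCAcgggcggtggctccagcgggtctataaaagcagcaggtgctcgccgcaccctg
Dusp1: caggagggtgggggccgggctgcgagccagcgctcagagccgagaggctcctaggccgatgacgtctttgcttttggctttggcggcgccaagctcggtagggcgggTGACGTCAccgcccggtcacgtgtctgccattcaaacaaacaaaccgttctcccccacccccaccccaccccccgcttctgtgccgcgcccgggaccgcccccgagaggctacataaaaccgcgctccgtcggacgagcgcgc
Zfp36: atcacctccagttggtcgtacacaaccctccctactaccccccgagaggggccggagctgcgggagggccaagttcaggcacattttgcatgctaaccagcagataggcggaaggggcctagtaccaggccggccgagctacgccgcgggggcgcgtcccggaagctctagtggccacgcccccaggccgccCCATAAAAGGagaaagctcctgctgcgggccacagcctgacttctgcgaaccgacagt
Ifit1: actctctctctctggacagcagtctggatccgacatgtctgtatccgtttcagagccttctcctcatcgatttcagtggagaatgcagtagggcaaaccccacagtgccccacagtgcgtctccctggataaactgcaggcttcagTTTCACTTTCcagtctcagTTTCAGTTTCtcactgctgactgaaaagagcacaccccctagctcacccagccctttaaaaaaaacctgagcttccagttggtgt

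Among 26 measured genes of the LPS receptor and its adaptors, 5 rose and 0 fell, with a median log2 change of 0.03. The called genes were Tlr2, Cd14, Peli1, Irak2 and Ticam1, which encodes the adaptor TRIF. Tlr2, the receptor for bacterial lipoproteins, went from 8.19 and 8.07 to 10.07, 10.14 and 10.09 (3.92-fold). Cd14, the LPS co-receptor, went from 9.24 and 8.85 to 10.70, 10.66 and 10.75 (3.16-fold). Peli1 (1.52), Irak2 (1.02) and Ticam1 (0.96) followed in log2 change. The receptor itself and its first partners had small values, with Tlr4 at -0.16, Ly96, which encodes MD-2, at 0.03 and Myd88 at 0.38, and none of these passed the test. The count was 3 without untreated mouse A or without untreated mouse B.

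NF-κB is a family of dimers held in the cytoplasm by IκB proteins until LPS signalling destroys them. Of 15 measured subunits, inhibitors and kinases, 10 rose and 0 fell, and the median log2 change was 0.84. The inhibitors led. Nfkbia, which encodes IκBα, went from 7.50 and 7.27 to 10.88, 10.64 and 11.19, an 11.5-fold rise (standard error of the log2 change 0.20, limma adjusted p = 2.39e-05). Nfkbiz rose 8.68-fold, Nfkbie 6.30-fold and Nfkbid 5.02-fold. Among the subunits, Rel rose by 2.16 on the log2 scale, Relb by 0.86, Nfkb2 by 0.84 and Rela by 0.61, while the value for Nfkb1 was 0.40. The 4 measured kinase genes of the pathway had changes of -0.04 to 0.17, and 0 of them passed.

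Tumour necrosis factor genes and their regulators rose in 10 of 21 measured members, and 0 fell (median 0.41). Tnf, at chr17:35199381-35202007, was at 5.29 and 6.09 in untreated mice A and B and at 11.74, 11.87 and 11.63 with LPS, a 66.6-fold rise (standard error of the log2 change 0.22, limma adjusted p = 2.1e-06). The LPS libraries lay closer together than the untreated ones. Tnfsf9, the ligand of 4-1BB, went from 1.36 and 1.38 to 8.54, 8.37 and 8.37 (133-fold). Tnfaip3, which encodes the ubiquitin-editing inhibitor A20, went from 5.88 and 5.83 to 11.17, 11.28 and 11.08 (log2 change 5.32). The receptor genes Tnfrsf1a and Tnfrsf1b had values of 0.05 and 0.32 and did not pass. In the IL-1 family and inflammasome list, 6 of 15 rose and 0 fell (median 0.46). Beside Il1a and Il1b these included the inflammasome sensors Nlrp3 (12.3-fold) and Mefv (3.29-fold). Casp1, the caspase that cuts pro-IL-1β, was at 0.08.

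Chemokines split by gene. Of 9 CXC chemokines 4 rose and 0 fell (median 0.50), and of 9 CC chemokines 6 rose and 0 fell (median 3.89). Ccl4, a chemokine of the macrophage inflammatory protein group, went from 4.68 and 6.01 to 10.38, 11.00 and 10.51 (39.0-fold). Ccl3 rose 22.0-fold, Ccl7 20.5-fold and Ccl2, the monocyte attractant, 15.2-fold from 3.09 and 3.21 to 6.90, 7.55 and 6.77. Mouse B had the highest LPS value of all 4. Cxcl3, at a limma adjusted p of 0.0844, lost its call under 8 of 17 alternatives, 7 of them leaving out a library. Ccl6 and Ccl8, with log2 changes of -0.28 and 0.01, did not pass. Interleukins and colony-stimulating factors rose in 9 of 13 and fell in 0 (median 3.10). Il12b, a subunit shared by IL-12 and IL-23, went from -2.11 and 0.41 to 4.57, 4.34 and 4.41, with the spread in the untreated cells. Lif, of the IL-6 family, went from -0.01 and -0.34 to 4.18, 5.10 and 4.23 (25.6-fold). Il10, the main anti-inflammatory cytokine of macrophages, rose by 3.76 on the log2 scale and Osm by 2.29.

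Interferon beta acts back on the cell that makes it and on its neighbours. Of 9 measured interferon and IRF genes 2 rose and 0 fell (median 0.03), namely Ifnb1 and Irf1. Irf1 went from 5.90 and 6.19 to 8.97, 9.19 and 8.79 (7.67-fold). Irf3, Irf5, Irf7 and Irf9 had changes of -0.21 to 0.18 and did not pass. Of 31 interferon-stimulated genes 8 rose and 0 fell (median 0.22). Gbp5, a guanylate-binding protein, went from 1.87 and 2.02 to 6.32, 6.75 and 5.38 (18.4-fold). Oasl1 rose 6.92-fold, Mx2 6.09-fold and Ifit1 5.17-fold, and mouse C had the lowest LPS value of all 4. The other 23, among them Oas2 (-0.18) and Bst2 (0.00), did not pass. With the replicate block, 12 of the 31 passed.

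Immediate-early genes, which need no new protein to be transcribed, were called in most members. Of 12 EGR, IER and NR4A genes 10 rose and 0 fell, with a median log2 change of 4.08. Egr1, a zinc finger factor of the growth and stress response, went from 2.70 and 3.52 to 10.06, 9.90 and 9.98 (117-fold). Egr3 went from -1.82 and -1.34 to 3.63, 3.30 and 3.83, and Egr2 from 1.30 and 1.88 to 6.74, 7.07 and 6.42. The 3 LPS values of Egr1 lay closer together than its untreated values. Ier5l had the only negative value of that list (-2.07, limma adjusted p = 0.144), which passed with the replicate block. In the AP-1 list 7 of 15 rose and 0 fell (median 0.81), including Maff (39.8-fold), Fosb (18.4-fold), Junb (5.87-fold) and Fos (5.25-fold). Fos was at 6.50 in both untreated libraries and at 8.90, 8.66 and 9.11 with LPS.

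Some inhibitors of the response were among the raised genes. Of 9 measured MAP kinase phosphatases 6 rose and 0 fell (median 2.57). Dusp1, which inactivates p38 and JNK, went from 4.86 and 4.74 to 9.97, 10.10 and 10.41 (41.1-fold). Dusp2 rose 26.7-fold and Dusp5 16.3-fold, while Dusp3, Dusp6 and Dusp7 had values of -0.25 to -0.05. Of 11 regulators of AU-rich mRNA decay 4 rose and 0 fell (median 0.11). Zfp36, whose product tristetraprolin marks cytokine mRNA for decay, went from 7.12 and 7.08 to 11.31, 11.35 and 11.30 (18.6-fold, standard error of the log2 change 0.10, limma adjusted p = 2.31e-07). The RNase gene Zc3h12c rose 5.46-fold and Zc3h12a, which encodes regnase-1, 2.03-fold. Of 12 SOCS, JAK and STAT genes 1 rose and 0 fell (median 0.02). That gene was Socs3, the inhibitor of gp130 signalling, which went from 5.24 and 5.14 to 10.28, 10.07 and 10.48 (34.0-fold).

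Of 11 prostaglandin genes 3 rose and 0 fell (median -0.03). Ptgs2, the inducible cyclooxygenase, went from 2.50 and 1.88 to 9.03, 9.12 and 8.49 (104-fold). The PGE2 receptor Ptger4 rose 4.22-fold and the synthase Ptges 2.12-fold, and Ptgs1, the constitutive cyclooxygenase, was at -0.35. Of 18 costimulatory and adhesion genes 7 rose and 0 fell (median 0.56). Cd83 went from 5.25 and 5.37 to 8.45, 8.63 and 8.43 (9.13-fold). Olr1, a scavenger receptor, rose 26.7-fold, Cd69 12.2-fold and Icosl 5.50-fold. Cd80 and Cd86, at 0.49 and 0.23, did not pass.

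Growth and feedback genes rose in 23 of 29 and fell in 2 (median 1.69). Errfi1, an inhibitor of the EGF receptor, reached 8.40, 8.34 and 8.04 with LPS, an 18.0-fold rise. Plk2 rose 11.5-fold, Btg2, an antiproliferative gene, 9.66-fold, Myc, the growth factor-responsive transcription factor, 6.49-fold and Hilpda, a lipid droplet gene, 4.05-fold. Myc was at 3.76 and 4.69 before and at 6.76, 7.18 and 6.83 after LPS. The falls were Id1, an inhibitor of basic helix-loop-helix factors that BMP signals raise (-1.90), and Gadd45g (-1.18). The related Id2 and Id3 rose by 0.96 and 1.57, and Gadd45a and Gadd45b by 2.45 and 2.18. Without untreated mouse B, 0 of the list fell, and 1 fell without untreated mouse A, LPS mouse A, LPS mouse B or the LPS and Dex library of mouse A. Of 10 KLF factors 3 rose and 0 fell (median -0.02), with Klf6 at 4.75-fold and Klf2 at 4.51-fold. The lowest change of the list was -0.64. In some other fits 1 fell, among them those with the replicate block, with all 16 libraries, with median centring and with voom without the block.

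Genes of the pausing and elongation machinery were called at the share of all genes. Of 28 measured members 1 rose and 0 fell (3.57% against 3.56% of all genes), with a median of 0.02 and a range of -0.31 to 0.93. The called member was Brd2, a bromodomain protein that binds acetylated histones, which went from 8.23 and 8.25 to 9.21, 9.27 and 9.03 (1.91-fold). Without LPS mouse C, 2 rose. The other NELF subunits Nelfa, Nelfcd and Nelfe had changes of -0.15 to 0.09. Of 13 heat shock genes 3 rose and 0 fell (median 0.15), namely Hspa1a, Hspa1b and Dnajb1. Hspa1a and Hspa1b are near-identical copies, so how reads divide between them is uncertain. Hspa1a went from -0.21 and -1.45 to 3.41, 3.19 and 2.66, and Hspa1b from 1.98 and 1.85 to 4.98, 4.59 and 4.67. Of 8 measured genes of the glucocorticoid receptor and its classic targets, 2 rose and 1 fell. The fall was Tsc22d3, which encodes the anti-inflammatory protein GILZ, from 5.93 and 5.68 to 4.54, 4.33 and 4.35 (-1.40, standard error 0.10, limma adjusted p = 0.000112). Nfil3 rose 2.74-fold, and the receptor gene Nr3c1 was at 0.04. The other rise was Cebpb (1.18, adjusted p = 0.0787), and 1 gene of the list rose without untreated mouse A, untreated mouse B, LPS mouse A, LPS mouse C or the LPS and Dex library of mouse A.

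Genes of macrophage identity were called in 2 of 25 (median -0.01), both higher and both near the 1.5-fold limit. That is 8.0%, against 3.56% of all genes called higher. These were Il10ra at 1.61-fold and Lyz2 at 1.58-fold, and neither was called without untreated mouse B. The count was 1 without untreated mouse A, LPS mouse A or LPS mouse C. With the replicate block 2 genes of the list were called higher and 1 lower, and Lyz2 was not among them. Csf1r, the receptor for the growth factor of these cultures, was at 0.07 and Spi1, which encodes PU.1, at 0.10. Of 21 cytosolic ribosomal protein genes and 20 genes of the mitochondrial respiratory chain, 0 were called, with medians of 0.02 and 0.04.

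**Figure D4:**
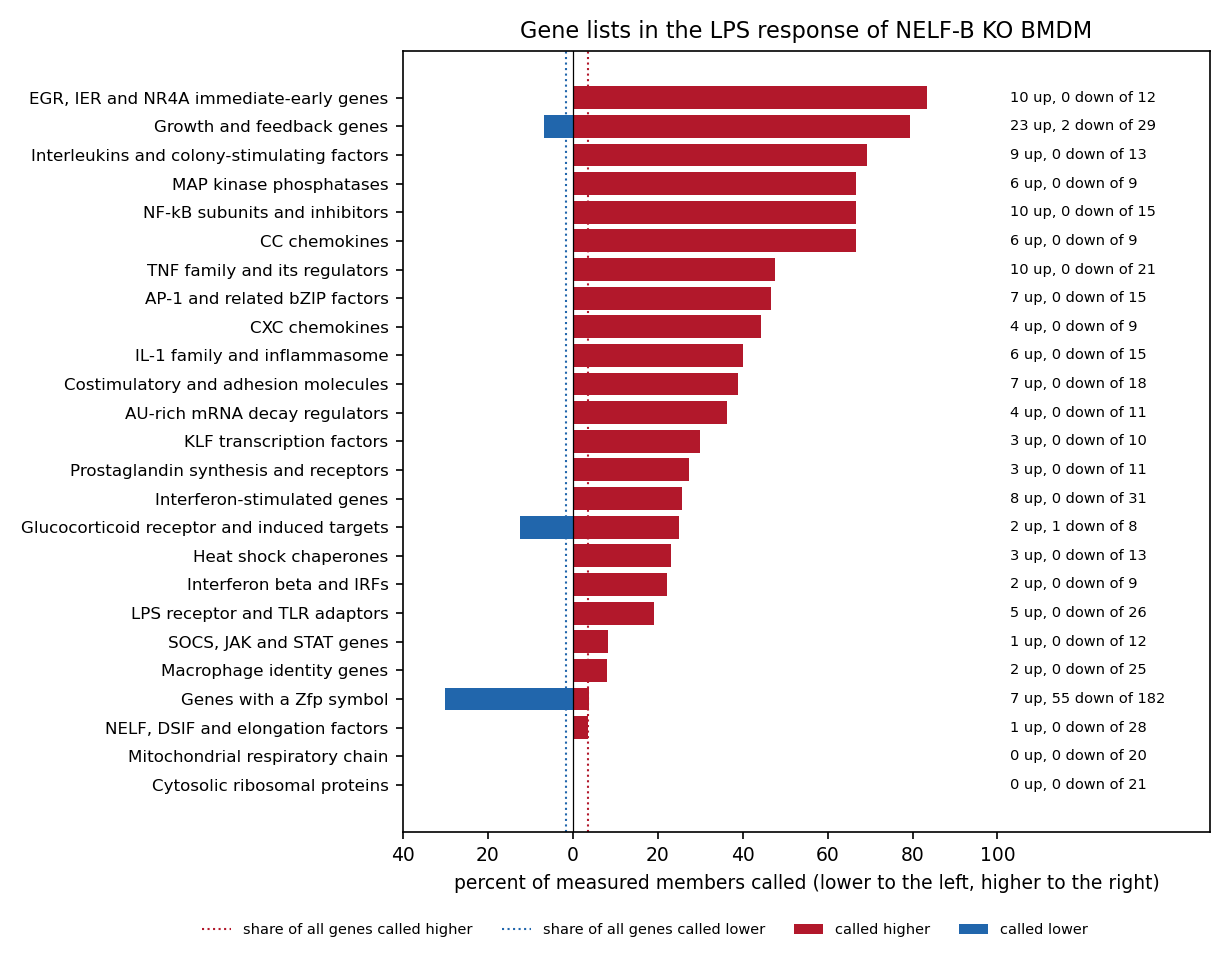
Percent of the measured members of each gene list called higher (red, to the right) or lower (blue, to the left) in NELF-B KO BMDM after 1 h of LPS, with the counts at the right. Dotted lines mark the 3.56% and 1.72% of all genes called. Immediate-early genes have the highest share called higher (10 of 12), and genes with a Zfp symbol the highest share called lower (55 of 182).

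The lowered genes were of another kind. Of the 10 with the largest fall, 6 carry a zinc finger symbol. Frat2, whose product binds GSK3, fell furthest, from 2.29 and 2.34 in untreated mice A and B to 0.00, 0.04 and 0.79 with LPS (-2.04, standard error 0.32, limma adjusted p = 0.00794). Id1 fell from 2.67 and 3.52 to 1.05, 0.86 and 1.67. Txnip, which binds thioredoxin and restrains glucose uptake, fell from 6.25 and 6.20 to 4.19, 4.75 and 4.46 (-1.76, standard error 0.18, adjusted p = 0.000617). The untreated values of these genes lay above every LPS value. Zfp553 fell from 3.47 and 3.37 to 1.73, 1.40 and 1.62 (-1.84). Zfp870 and Zfp472, which lie on chromosome 17 at 32879219-32891642 and 32965814-32979233, fell as well, Zfp870 from 2.28 and 2.39 to 0.78, 0.13 and 0.65 and Zfp472 from 3.57 and 3.46 to 1.98 or less. Zfp748, Zkscan14 and Zfp623 fell by 1.74, 1.74 and 1.73, and 2810008D09Rik went from 2.19 and 2.45 to 0.59, -0.06 and 1.05. Id1 was not called without untreated mouse B, nor Zfp870 without untreated mouse A or without untreated mouse B, nor 2810008D09Rik without untreated mouse A, untreated mouse B or LPS mouse A.

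Zinc finger genes were then counted by symbol (Zfp followed by a number), a group chosen after its values were seen. Many of them encode KRAB repressors in clusters of related genes, whose reads can be shared between copies. Of 182 measured genes, 55 fell (30.2%) and 7 rose, and the median log2 change was -0.36. Of the other 9432 genes, 110 fell (1.17%), with a median of -0.00. The 55 made up 33.3% of all lowered genes. Their median level was 3.25 and 3.19 log2 CPM in untreated mice A and B and 2.41, 2.16 and 2.24 in LPS-treated mice A, B and C, a description of genes chosen for their fall in these libraries. Their median change came to -0.85 within mouse A and -1.03 within mouse B. The 7 that rose were Zfp36, Zfp36l1, Zfp131, Zfp263, Zfp703, Zfp719 and Zfp800, and Zfp36 and Zfp36l1 encode RNA-binding proteins with another kind of zinc finger. Over all 182 genes the median level was 3.60 and 3.59 before and 3.23, 3.05 and 3.09 after LPS. In WT macrophages the median change of all 182 genes was -0.20, and 51 of the 55 had a negative change, with a median of -0.75. The share of all genes with a negative WT change was not counted. The number lowered was 20 without untreated mouse A, 19 without untreated mouse B and 36 without LPS mouse B, and with the replicate block it was 65.

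Both sets of called genes were short and had few exons. By GENCODE vM21, the median span from start to end was 14.0 kb for raised genes and 12.4 kb for lowered genes, against 24.5 kb for all genes tested. The median of the largest number of exons in a transcript was 5 and 4, against 10. Spans under 5 kb were held by 22.8% of raised, 15.2% of lowered and 9.52% of all genes with a position. The median untreated level was 4.66 log2 CPM for raised and 3.49 for lowered genes, against 5.01 for all. A mean untreated level below 1 was held by 34 raised genes (9.94%), 0 lowered genes and 65 of all genes (0.676%). Genes that pass a filter on low values only through the LPS libraries had to be higher there, and the authors' filter is not given in the sources used here, so the share of low genes among the raised is no result.

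WT macrophages had changes of the same sign for most of these genes. In the fit of the WT libraries, 340 of the 342 genes had a positive change, 324 over 1.5-fold, with a median of 1.62 against 1.58 in the KO. Of the 165 lowered genes, 158 had a negative change in the WT, with a median of -0.76 against -0.87. The share of all 9614 genes with such WT changes was not counted, so these counts are a description. The WT changes rest on 2 untreated libraries, and that of WT mouse A stood apart, as given below. In the WT fit the ribosomal protein and respiratory chain lists had medians of -0.62 and -0.28, against 0.02 and 0.04 in the KO. The difference of response, KO minus WT, passed an FDR under 0.1 for 0 genes in limma over the 16 libraries and for 0 with the replicate block. If no gene differed, a share of 0.05 of the 9614 genes would be expected at an unadjusted p under 0.05. There were 221 genes, 396 with the block and 44 in a fit of the 10 untreated and LPS libraries, each below that share. That count was 69 without untreated WT mouse A, 4692 without untreated WT mouse B, 80 and 142 without untreated KO mouse A or B, 78 and 144 without LPS-treated WT mouse A or C, and 71 without LPS-treated KO mouse C. The smallest adjusted p was 0.69, or 0.414 with the block, and the standard error of the difference had a median of 0.30. For Tnf the difference was 0.09 with a 95% interval of -0.76 to 0.94, and for Nfkbia 0.18 with an interval of -0.42 to 0.78. A p above the threshold does not show that the genotypes respond alike.

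The 3 genes with the smallest p in each direction show where the KO value was larger or smaller. Dnajb1, a co-chaperone of HSP70, went from 4.96 and 5.04 to 6.10, 6.03 and 6.21 in the KO, and in the WT was at 5.33 and 4.91 before and 4.95, 5.13 and 5.36 after LPS. Its difference of response was 1.09 (95% interval 0.65 to 1.53, limma adjusted p = 0.69). The 3 KO LPS values lay above the other values given, and the WT groups overlapped. Dnajb1 was picked by its p from these same libraries, so this separation is a description. Phlda1, an immediate-early gene of cell survival, went from 0.79 and 1.75 to 6.57, 6.71 and 6.28 in the KO and from 1.28 and 1.52 to 4.68, 5.26 and 4.94 in the WT, a difference of 1.69 (0.90 to 2.48). Ifrd1 had a log2 change of 3.43 in the KO against 2.59 in the WT, a difference of 0.84 (0.42 to 1.26). In the other direction, the KO and WT log2 changes were -0.00 and 0.86 for Mpp7, -0.42 and 1.16 for Ccne2, a cyclin of DNA replication, and -0.63 and 0.20 for Fen1, a flap nuclease of replication. The adjusted p of all 6 was 0.69, and the interval of each difference excluded 0 only before adjustment. The untreated library of WT mouse A stood apart from the others (r of 0.83 to 0.909 across genes). Without it the differences of Dnajb1, Phlda1 and Ifrd1 were 0.88, 1.81 and 0.74, and those of Mpp7, Ccne2 and Fen1 were -0.55, -1.14 and -0.69. Without the other untreated WT library, which leaves only the library of mouse A, 4666 genes passed.

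**Figure D5:**
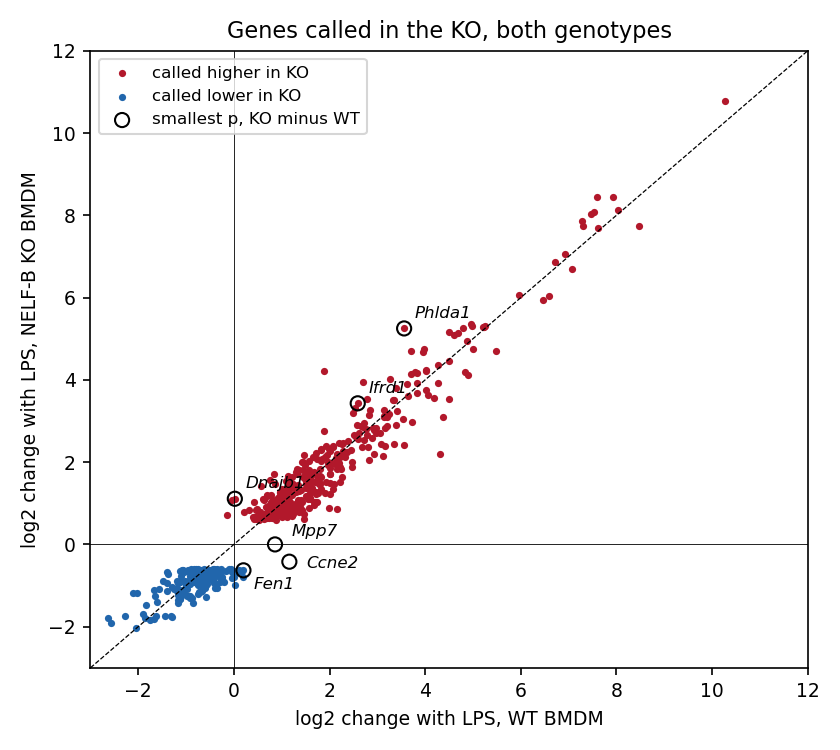
Log2 change with LPS in WT BMDM (x axis) and in NELF-B KO BMDM (y axis) for the genes called higher (red) or lower (blue) in the KO. The dashed line is equality. Circles mark the 3 genes in each direction with the smallest p for KO minus WT, among them Dnajb1 with 1.11 in the KO against 0.02 in the WT.

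The study's list of genes repressed by Dex in LPS-treated WT macrophages has 201 names, of which 173 are in the table. Induction by LPS in the WT libraries of the same study was a condition for entering it, so the list is not independent evidence of a rise. In the KO, 144 of the 173 (83.2%) were called higher with LPS, 0 were lower, and all 173 had a positive log2 change (0.22 or more, median 1.72). In the WT fit the median of the 173 was 1.83, and the median of the KO minus WT differences was -0.06. With the replicate block, 163 were called in the KO.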

How the data were processed

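RNA-seq was made by the authors from poly(A) RNA with TruSeq libraries and 50 bp paired reads on a HiSeq2500. Reads were aligned to mm10 in CLC Bio Genomic Workbench, and unique exon reads were counted. The deposited values are log2 CPM after edgeR scaling by the authors with a weighted trimmed mean, and the submitters' processing notes also name CASAVA 1.8 and FastQC. The filter that left 9614 genes is not given in the sources used here. Columns with the authors' own fold changes and p-values were not used.

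The KO comparison was fitted in limma 3.58.1 (R 4.3.3) on the deposited log2 values of the 8 KO libraries as 3 groups, with a variance trend and Benjamini-Hochberg adjustment over all genes. A call needed an FDR under 0.1 and over 1.5-fold. KO minus WT was fitted over all 16 libraries. Python 3.11.15, numpy 2.4.6 and pandas 2.3.3 were used for the rest. A count test had been planned as an alternative, but the values are not counts. Whole reads were recovered from the steps of the low values, and 100.0% of values under 3 CPM were whole within 0.1 read. Limma voom on these reads called 337 genes higher and 178 lower. The 16 libraries held 25000000 to 49700000 reads, and floors and intervals cover counting error only. Samples with the same mouse number deviated together (r = 0.87 for untreated with LPS, and 0.78, 0.90 and 0.89 for LPS with LPS and Dex), and the numbers were read as mice from the labels. Both compared libraries of KO mouse B carry the same date-like tag in their labels, which the untreated library of WT mouse B also carries. Those of KO mouse A carry tags that differ in the place of a separator, and KO mouse C carries none. What the tags mark is not stated. On simulated data with 200 genes raised 2-fold in the LPS and the LPS and Dex groups, 80% were recovered in this comparison, with 11 false calls. The simulated libraries varied independently, without the shared deviation of libraries of the same mouse. These figures need not hold for the real libraries.

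Genes were named by rule. The rule took Nelfb, 10 genes the study follows, the 10 largest called rises and falls without overlap, up to 4 called members of each list, and the 3 genes in each direction with the smallest p for KO minus WT. Other list members were named after their values were seen. All members and lists were chosen with earlier results of these data known. Alternatives were other sets of libraries, a replicate block, a filter on mean level, log2(CPM + 1), median centring, voom, other thresholds and leaving out each library.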

Additional observations from a re-analysis of the deposited data

How the results depend on the processing

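Of 90 called genes named by rule, 78 kept their call in each of the 17 alternative fits that tested them (Areg is removed by the filter on mean level), and 12 lost it in some (among them Cebpb, Cxcl3, Fen1, Lyz2 and Ptges), with 0 changes of direction. The number of raised genes was 276 to 347 over the fits that left out a library, and that of lowered genes 52 to 156, with 75 without untreated mouse A and 52 without untreated mouse B. A limit of 2-fold left 51 lowered genes. Pairing the libraries by mouse, as a replicate block, gave 431 raised and 247 lowered genes over 8 libraries, and 433 and 253 over the 5 untreated and LPS libraries. The number of genes with a KO minus WT difference was 0 to 4666, with 4666 without the untreated library of WT mouse B. The log2 change of Nelfb ranged from -0.73 without untreated KO mouse A to 0.13 without untreated KO mouse B. The causes were not tested. Genes named by rule were largely chosen for their large changes in these libraries, so their stability does not stand for all called genes. The planned edgeR fits were not run because the deposited values are log2, and voom on recovered reads, chosen after seeing the data, took their place. The main KO fit rests on 2 untreated KO libraries, and a fit that left out an untreated KO library rests on the other alone.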
